A study of Rattus norvegicus with 17 samples.

Results

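The genes described here encode enzymes that use methionine and homocysteine. They were chosen by a list of 10 gene symbols, Cbs, Cth, Mat1a, Mat2a, Bhmt, Gnmt, Ahcy, Mtr, Cdo1 and Pemt, and 9 of the 10 had a probe on the array, 1 probe each, among 22226 probes and 13278 genes with a symbol. No probe carried the symbol Pemt, the enzyme that methylates phosphatidylethanolamine, and it is not analysed here. Cbs was selected on its own readout, the lower signal in adipose tissue of Goto-Kakizaki (GK) compared to Brown-Norway (BN) rats, so the values of that contrast are given as a description, without p-values, and its counts of genes past a threshold are printed only beside those of all probes, with nothing read from them.

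GK rats become diabetic without any treatment and without obesity, and BN rats, whose blood glucose is normal, were the strain they were set against. Adipose tissue was profiled in 4 GK and 5 BN rats and liver in 3 GK and 5 BN rats. All were males of 7 months from the Oxford colonies, fed standard chow, without any further treatment, and adipose tissue and liver came from the same animals in all 3 GK and all 5 BN livers. Both strains are inbred and differ across the whole genome, so diabetes and the other differences between the strains cannot be told apart, and the adipose depot is not given in the sources used here. One RNA sample was hybridised to each of 17 Illumina RatRef-12 arrays.

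Methionine is joined to ATP to form S-adenosylmethionine, the methyl donor of most methyltransferases, and the product left after methyl transfer is split to homocysteine. Homocysteine is either methylated back to methionine or passed through the transsulfuration pathway to cysteine, which can be oxidised towards taurine. Liver carries most of this flux in mammals. Mat1a encodes the methionine adenosyltransferase of adult hepatocytes and Mat2a that of most other cells. Gnmt encodes a glycine methyltransferase that consumes S-adenosylmethionine, and Ahcy the hydrolase that releases homocysteine. Bhmt and Mtr encode the enzymes that remethylate homocysteine with betaine and with methylfolate. Cbs and Cth encode the enzymes of transsulfuration, and Cdo1 encodes cysteine dioxygenase.

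The 4 promoters below belong to Cbs, to Gnmt, and to Mat1a and Mat2a, the pair of methionine adenosyltransferases whose liver signals lay on opposite sides of their adipose tissue signals. Each window runs from 250 bases before to 50 bases after the RefSeq start in the GRCr8 assembly, and no sequence of the GK strain was read. Capitals mark matches to the GC box GGGCGG, the CCAAT box CCAAT and the TATA box TATAAA on either strand, and none of the marked matches overlapped another.
Cbs (chr20:9733876-9734175, reverse strand): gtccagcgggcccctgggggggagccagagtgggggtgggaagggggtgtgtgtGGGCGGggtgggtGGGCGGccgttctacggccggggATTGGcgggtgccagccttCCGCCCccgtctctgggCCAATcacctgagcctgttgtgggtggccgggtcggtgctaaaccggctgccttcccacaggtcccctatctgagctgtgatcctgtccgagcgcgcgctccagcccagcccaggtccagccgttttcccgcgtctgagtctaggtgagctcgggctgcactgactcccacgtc
Mat1a (chr16:17016918-17017217, forward strand): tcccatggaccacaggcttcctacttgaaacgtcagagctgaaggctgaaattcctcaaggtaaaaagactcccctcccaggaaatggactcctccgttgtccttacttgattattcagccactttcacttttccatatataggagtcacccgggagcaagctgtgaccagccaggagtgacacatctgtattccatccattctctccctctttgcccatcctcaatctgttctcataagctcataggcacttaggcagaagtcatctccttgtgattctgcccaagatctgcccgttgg
Mat2a (chr4:106053563-106053862, reverse strand): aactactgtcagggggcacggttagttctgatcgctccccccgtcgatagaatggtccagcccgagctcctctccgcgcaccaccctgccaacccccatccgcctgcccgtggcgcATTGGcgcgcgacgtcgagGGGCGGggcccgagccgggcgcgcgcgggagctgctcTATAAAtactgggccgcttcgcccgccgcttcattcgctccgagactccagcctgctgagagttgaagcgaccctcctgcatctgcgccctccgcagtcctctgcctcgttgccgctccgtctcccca
Gnmt (chr9:21752032-21752331, forward strand): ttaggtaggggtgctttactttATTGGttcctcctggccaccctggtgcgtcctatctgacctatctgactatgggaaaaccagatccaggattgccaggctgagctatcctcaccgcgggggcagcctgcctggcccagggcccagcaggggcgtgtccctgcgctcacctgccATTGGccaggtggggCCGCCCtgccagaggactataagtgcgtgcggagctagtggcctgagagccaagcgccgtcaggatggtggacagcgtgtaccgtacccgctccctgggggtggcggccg
Windows of this length were found for 9 of the 10 genes, Cdo1 being the one without. The Cbs window held 21 CpG dinucleotides, 3 GC boxes and 2 CCAAT boxes, and that of Mat2a held 34 CpG, 1 GC box, 1 CCAAT box and 1 TATA box. The Mat1a window held 4 CpG and none of the 3 motifs, and the Gnmt window held 15 CpG, 1 GC box and 2 CCAAT boxes. Over all 33469 rat promoter windows of this length the median was 7 CpG, and the GC box was found in 33.1%, the CCAAT box in 37.5% and the TATA box in 14.2% of them. These matches describe the letters in the windows and were not set against any binding measurement.

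Values are log2 signals after subtraction of the negative control mean and variance stabilising normalization (vsn) over all 17 arrays, and a probe was called above background where its detection score exceeded 0.99. Probes differ in how brightly they bind, so levels are compared only within a gene. Between 7315 and 8237 probes were above background on the adipose tissue arrays and between 8004 and 9747 on the liver arrays. No slide held arrays of both tissues, so tissue and slide cannot be told apart. Several arrays carried genes of another tissue. On the array labelled GK liver replicate 2, all 10 kidney marker genes measured were above background, with a median log2 signal of 12.19, against 1 or 2 of 10 on every other liver array. The median of 8 hepatocyte genes on this array lay 7.28 below the BN liver mean, and its correlation with the other liver arrays was 0.846 to 0.866. The liver results are therefore given with and without it. GK liver replicate 1, kept in both, had the kidney gene Kap above background at 7.34. In BN livers Kap was 1.44 to 4.18 and not above background. The hepatocyte median of GK liver replicate 1 lay 0.38 below the BN liver mean. Its mean raw signal of 607 units was the lowest of the liver arrays, the others having 868 to 1150 units. In adipose tissue, 6 of 8 hepatocyte genes were above background in GK replicate 1, against 2 of 8 in BN replicate 1 and 0 of 8 on the other 7 arrays. The summed hepatocyte signal was 1907 units in GK replicate 1 and at most 186.3 units on any other adipose tissue array. All 8 adipocyte genes were above background on every adipose tissue array except BN replicate 1, with 7. The median of 7 skeletal muscle genes ran between 5.47 and 13.27 in GK and between 4.75 and 10.12 in BN adipose tissue, the highest being GK replicate 2. That adipose tissue array, from the rat of GK liver replicate 1, also had Kap above background, at 7.72. Its summed signal of the 10 kidney genes was 339.5 units, against 23.8 to 73.6 units on the other adipose tissue arrays. The part of these admixed signals in the results was not tested, except where values are given.

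**Figure D1:**
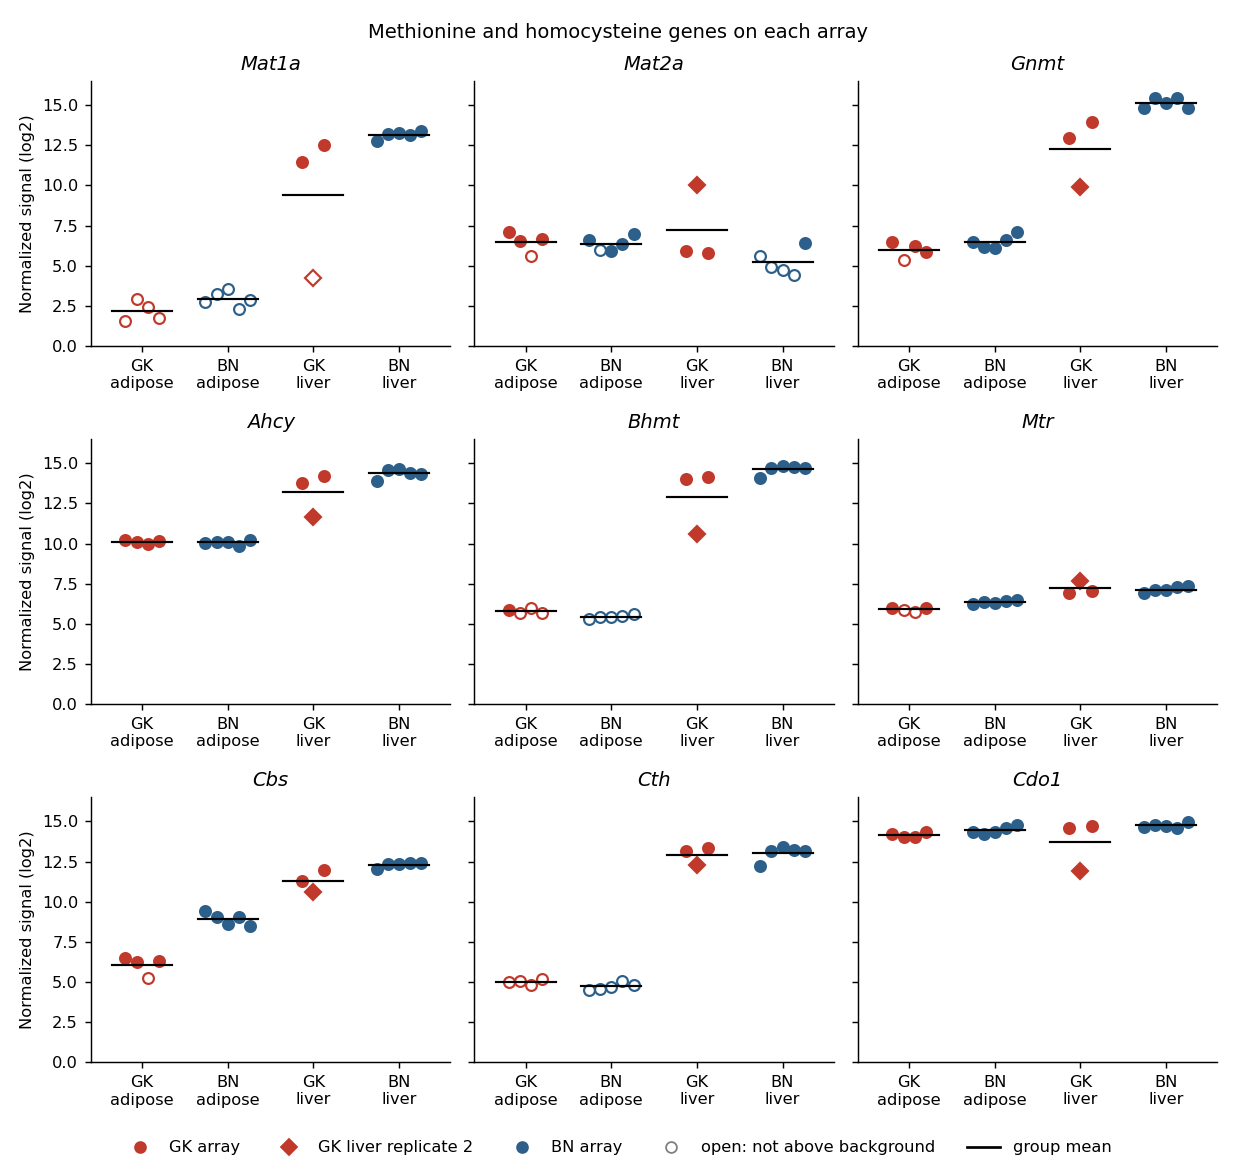
Normalized log2 signal (vertical axis) of the 9 genes on each array, in GK adipose tissue, BN adipose tissue, GK liver and BN liver (horizontal axis). Points are arrays, open points were not above background, the diamond is GK liver replicate 2 and the line is the group mean. Cbs steps up from GK adipose tissue through BN adipose tissue and GK liver to BN liver, and Cth, Mat1a and Bhmt are near or under background in adipose tissue.

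Cbs, encoding the enzyme that commits homocysteine to transsulfuration, was the gene of the list with the widest gap between strains in adipose tissue. Its log2 signal was 6.51, 6.28, 5.23 and 6.29 in GK adipose tissue, against 9.43, 9.08, 8.59, 9.08 and 8.47 in BN adipose tissue. The highest GK array lay 1.97 below the lowest BN array. Before normalization, the background-subtracted signal was 82.7, 70.7, 19.6 and 63.0 units in GK and 664.6, 384.5, 341.3, 439.2 and 292.2 units in BN adipose tissue. Cbs was above background in 3 of 4 GK and 5 of 5 BN arrays, GK replicate 3 being the one below. The mean was 6.08 ± 0.58 in GK and 8.93 ± 0.39 in BN adipose tissue (SD, n = 4 and 5), a difference of −2.85 (SE 0.30) or 7.23-fold. In whole tissue, fewer cells of a type and less RNA per cell cannot be told apart. The difference was −3.00 without GK replicate 1, which carried hepatocyte genes, and −2.92 without GK replicate 2, which carried the most muscle signal. On each of the 3 slides that held both strains the GK array was lower than the BN array, by differences of −2.92, −3.85 and −2.30. The size depended on the processing. With normexp background correction, an offset and quantile normalization together (neqc), the difference was −1.16.

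The other genes of the list had smaller differences in adipose tissue. The count past an adjusted p of 0.05 was 1 of the 9 genes, Cbs itself, and 2.65% of all probes. The GK and BN arrays did not overlap for 3 of the 9, Cbs, Bhmt and Mtr, and for 8.21% of all probes. Because this contrast chose Cbs, its passing was fixed by the choice, and nothing is read from these counts. Mtr, the methylfolate-dependent methionine synthase, measured 6.01, 5.87, 5.73 and 6.01 in GK and 6.24, 6.34, 6.29, 6.41 and 6.51 in BN adipose tissue. All GK arrays lay under all BN arrays, by a gap of 0.22, and the difference of the means was −0.45 (SE 0.14). Mtr was near background, however, at 30.9 to 69.6 units after background subtraction. It was above background on 2 of 4 GK and 5 of 5 BN arrays. Over 18 alternatives its difference was −0.60 to −0.06. Bhmt, the betaine-dependent methyltransferase, measured 5.86, 5.71, 5.99 and 5.70 in GK and 5.28, 5.46, 5.44, 5.47 and 5.65 in BN adipose tissue. All GK arrays lay above all BN arrays, by a gap of 0.05, and the difference was 0.36 (SE 0.15). Bhmt was above background on 1 of the 9 adipose tissue arrays, GK replicate 1, which also carried the hepatocyte genes. Its highest value was in GK replicate 3, with 0 of 8 hepatocyte genes above background. Over 17 alternatives the difference was 0.03 to 0.44. Cth, the second transsulfuration enzyme, ran between 4.80 and 5.19 in GK and between 4.49 and 5.08 in BN adipose tissue and was above background on none of these arrays. Mat1a was likewise above background on no adipose tissue array. Gnmt ran between 5.38 and 6.48 in GK and between 6.11 and 7.09 in BN adipose tissue, with overlap.

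Ahcy and Cdo1 were above background on every adipose tissue array. Ahcy measured 10.23, 10.12, 10.01 and 10.13 in GK and 10.06, 10.12, 10.12, 9.82 and 10.24 in BN adipose tissue, a difference of 0.05 (SE 0.15). Cdo1 measured 14.23, 14.03, 14.02 and 14.36 in GK and 14.37, 14.22, 14.35, 14.60 and 14.77 in BN adipose tissue, a difference of −0.30 (SE 0.17). The arrays of the strains overlapped for both genes. Mat2a ran between 5.64 and 7.08 in GK and between 5.90 and 6.97 in BN adipose tissue, a difference of 0.11 (SE 0.32), and was above background on 3 of 4 GK and 4 of 5 BN arrays. The median difference over the 9 genes was −0.30, beside 0.02 over all probes.

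The comparison of GK with BN liver was not used in choosing the genes. With all 3 GK livers, 7 of the 9 genes had a mean below that of BN liver, beside 50.2% of all probes, and none passed an adjusted p of 0.05 in limma, while 0.679% of all probes passed. At an unadjusted p under 0.05 there were 4 of the 9 genes, Cbs, Mat1a, Bhmt and Gnmt, beside 2658 of 22226 probes. The GK and BN livers did not overlap for 3 of the 9 genes, Cbs, Mat1a and Gnmt, all lower in GK, beside 9.06% of all probes, of which those lower in GK made up 5.03% of all probes. Without GK liver replicate 2, the number past the adjusted p was again 0 of 9, with 1.21% of all probes, and 3 of 9, Cbs, Mat1a and Gnmt, had an unadjusted p under 0.05, beside 2882 of 22226 probes. The same 3 genes were those without overlap, all lower in GK, where 17.2% of all probes did not overlap and 9.33% did so with GK lower. The median difference over the genes was −1.03 with all arrays and −0.38 without GK liver replicate 2, beside 0.00 and −0.04 over all probes.

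Gnmt had the clearest separation in liver. Its log2 signal was 12.94, 9.88 and 13.95 in GK livers, against 14.83, 15.45, 15.14, 15.47 and 14.79 in BN livers. Every GK liver lay under every BN liver, the nearest pair being 0.85 apart, and the lowest was the kidney-like replicate 2. The difference was −2.88 (SE 0.78, limma adjusted p = 0.207) with all GK arrays and −1.69 (SE 0.35, limma adjusted p = 0.0767) without replicate 2, or 3.23-fold. Without replicate 2 the interval of the difference ran from −2.51 to −0.88 (95%, unadjusted), and the adjusted p ran from 0.000342 to 0.619 over 15 alternatives, 6 of which passed the threshold. In the fit without replicate 2, GK liver replicate 1 had the lower value of the 2, and without it the difference was −1.19. On the slides that held both strains the GK minus BN difference of Gnmt was −5.57 for replicate 2 and −1.20 for replicate 3. With slide as a random block and all arrays, the limma adjusted p was 0.161 for Gnmt and 0.222 for Cbs. The raw Gnmt signal in BN liver replicate 2 was 57669 units on an array whose highest signal was 62249 units, near the top of its range.

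Mat1a, the methionine adenosyltransferase of hepatocytes, measured 11.47, 4.25 and 12.55 in GK livers, against 12.76, 13.18, 13.24, 13.15 and 13.39 in BN livers. The value of 4.25, in GK replicate 2, was not above background, while the hepatocyte genes of that array were low as well. The other 2 GK livers lay under all BN livers, by a gap of 0.22. The difference was −3.73 (SE 1.58, limma adjusted p = 0.403) with all arrays and −1.14 (SE 0.34, limma adjusted p = 0.203) without replicate 2, where 3 of 15 alternatives passed the threshold. Mat2a showed the opposite on the kidney-like array, with 5.93, 10.02 and 5.78 in GK livers, against 5.63, 4.94, 4.71, 4.41 and 6.41 in BN livers. The value of 10.02 belonged to replicate 2. Mat2a was above background in 3 of 3 GK and 1 of 5 BN livers. The difference was 2.02 (SE 0.94, limma adjusted p = 0.437) with all arrays and 0.63 (SE 0.52, limma adjusted p = 0.639) without replicate 2, where the strains overlapped.

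Cbs measured 11.30, 10.59 and 11.96 in GK livers, against 12.01, 12.34, 12.33, 12.44 and 12.41 in BN livers. All GK livers were under all BN livers, but GK replicate 3 and BN replicate 1 were only 0.06 apart. The difference was −1.03 (SE 0.32, limma adjusted p = 0.277) with all arrays and −0.68 (SE 0.26, limma adjusted p = 0.339) without replicate 2, which did not pass the threshold. On the 2 slides that held both strains, the GK minus BN difference was −1.76 for the kidney-like replicate 2 and −0.38 for replicate 3. Whether the Cbs difference between strains was itself different in adipose tissue and liver was not tested.

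The remaining genes mainly set the kidney-like array apart. Bhmt measured 14.01, 10.63 and 14.13 in GK livers, against 14.07, 14.68, 14.81, 14.80 and 14.72 in BN livers, so that GK replicates 1 and 3 lay near the low end of the BN range. The difference was −1.69 (SE 0.73, limma adjusted p = 0.412) with replicate 2 and −0.54 (SE 0.28, limma adjusted p = 0.451) without it. Ahcy measured 13.76, 11.67 and 14.22 in GK livers, against 13.87, 14.61, 14.62, 14.40 and 14.36 in BN livers, and its difference was −1.15 with and −0.38 without replicate 2. Cdo1 measured 14.62, 11.90 and 14.70 in GK livers, against 14.65, 14.81, 14.74, 14.57 and 14.99 in BN livers, with a difference of −1.01 with and −0.09 without replicate 2. Cth stayed closer on the kidney-like array. It measured 13.17, 12.27 and 13.36 in GK livers, against 12.26, 13.14, 13.41, 13.25 and 13.15 in BN livers, and its interval without replicate 2 ran from −0.56 to 1.01. Mtr measured 6.93, 7.67 and 7.03 in GK livers, against 6.91, 7.09, 7.09, 7.28 and 7.35 in BN livers, the replicate 2 value being the highest liver value of this gene. The array of GK liver replicate 2 was the lowest GK liver for 7 of the 9 genes. The share of all probes lowest on it was not computed, so nothing is read from this count.

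**Figure D2:**
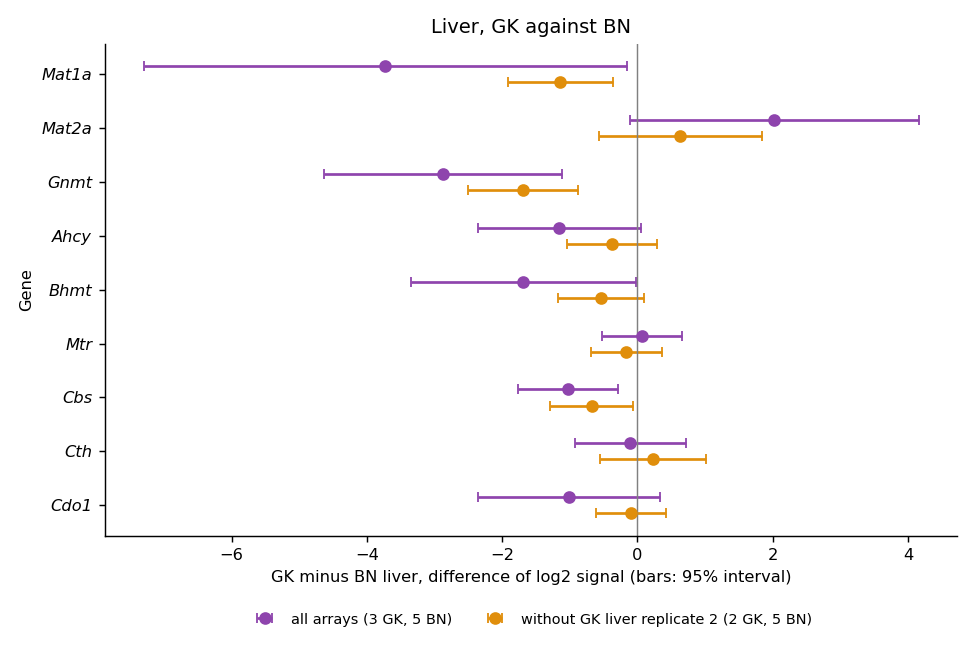
GK minus BN difference of log2 signal in liver (horizontal axis) for each gene (vertical axis), with all arrays (3 GK, 5 BN) and without GK liver replicate 2 (2 GK, 5 BN). Bars are 95% intervals from limma, not adjusted for the number of probes. The intervals narrow without replicate 2, and those of Mat1a, Gnmt and Cbs lie below 0 in both.

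Liver was compared with adipose tissue in the 5 BN rats, each giving both tissues, with the rat as a block. In this comparison 8 of the 9 genes passed an adjusted p of 0.05, beside 38.8% of all probes. 7 were higher in liver, beside 20.8% of all probes, and 1, Mat2a, was lower in liver, beside 18.0%. The tissues did not overlap for 7 of the 9 genes and for 34.4% of all probes. The share of all probes in each direction depends on the scaling, with 4633 higher and 3991 lower here, 3582 higher and 5063 lower with neqc, and 3285 higher and 4833 lower with quantile normalization. The direction of each of these 8 genes was kept under both. The median difference over the 9 genes was 4.30, beside 0.01 over all probes.

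Mat1a and Bhmt, together with Cth, were above background in every BN liver and in no BN adipose tissue, so that only a lower bound can be given. The bound sets the liver mean against the dimmest signal that counted as above background on each adipose tissue array, or the probe's own signal where that was higher. Mat1a was at least 224-fold higher in liver, with means of 13.15 ± 0.23 in liver and 2.94 ± 0.49 in adipose tissue (SD, n = 5 each, limma adjusted p = 3.65e-07). Bhmt was at least 525-fold higher in liver, with means of 14.62 ± 0.31 and 5.46 ± 0.13 in liver and adipose tissue (SD, n = 5 each, limma adjusted p = 2.93e-07). Cth was at least 208-fold higher in liver, with means of 13.04 ± 0.45 in liver and 4.73 ± 0.22 in adipose tissue (SD, n = 5 each, limma adjusted p = 4.11e-07). These bounds hold for the vsn values and not under every processing. Over 11 alternatives the lowest log2 difference was 5.15 for Mat1a, 6.50 for Bhmt and 5.00 for Cth.

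Gnmt was above background in all 10 arrays and was higher in liver by 8.64 on the log2 scale (SE 0.26, limma adjusted p = 8.34e-07). Ahcy was higher by 4.30 (SE 0.19, limma adjusted p = 4.41e-06), with 14.37 ± 0.30 in liver and 10.07 ± 0.15 in adipose tissue (SD, n = 5 each). Cbs was higher in liver by 3.38 (SE 0.23, limma adjusted p = 3.75e-05) or 10.4-fold. In single BN rats the Cbs difference was 2.58, 3.26, 3.74, 3.36 and 3.93. Mtr was higher by 0.79 (SE 0.16, limma adjusted p = 0.00616), and with neqc by 0.11. These genes had every BN liver above every BN adipose tissue.

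Mat2a ran the other way. It was lower in liver in each of the 5 BN rats, by differences between −1.93 and −0.56, and the mean difference was −1.14 (SE 0.23, limma adjusted p = 0.00659). It was above background in 1 of 5 BN livers and 4 of 5 BN adipose tissues, and the tissues overlapped. Over 10 alternatives the difference was −1.67 to −0.12. The call was lost in 1 fit to all 17 arrays (limma adjusted p = 0.187). That fit includes the kidney-like GK liver replicate 2, where Mat2a measured 10.02, and the part of this array was not tested. Cdo1 was bright in both tissues, with 14.75 ± 0.16 in liver and 14.46 ± 0.22 in adipose tissue (SD, n = 5 each). Its difference of 0.29 (SE 0.17, limma adjusted p = 0.236) did not pass the threshold, and its direction turned with the scaling, to −0.54 with neqc (limma adjusted p = 0.00133) and −0.53 with quantile normalization (limma adjusted p = 0.00280).

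**Figure D3:**
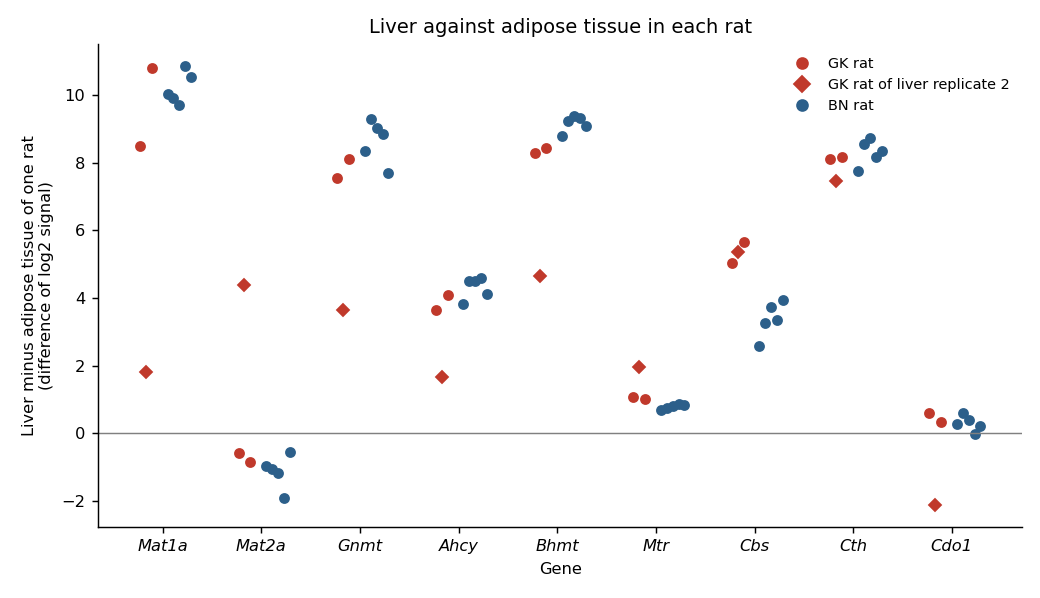
Liver minus adipose tissue difference of log2 signal within each rat (vertical axis) for the 9 genes (horizontal axis). Red points are the 3 GK rats, the diamond being the rat of liver replicate 2, and blue points are the 5 BN rats. The Cbs difference is 5.02 to 5.66 in GK rats and 2.58 to 3.93 in BN rats.

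Within the GK rats that gave both tissues, Cbs was 5.02, 5.36 and 5.66 higher in liver than in adipose tissue, the second value being from the kidney-like liver. All 3 were above the BN values, and this spread includes the adipose tissue contrast that chose the gene. For the 2 GK rats other than that of the kidney-like liver, the tissue differences are given as a description. The share of all probes that lay outside the BN range in these rats was not computed, so nothing is read from such a separation. For Mtr the tissue difference was 1.06 and 1.02 in GK rats, against 0.68 to 0.87 in BN rats. Bhmt and Cth were above background on no adipose tissue array of these rats, so their differences rest on adipose signals not told from background. Mtr and Gnmt were not above background on GK adipose tissue replicate 2 either, the array behind the first GK value of each. For Bhmt the difference was 8.30 and 8.44 in GK rats, against 8.78 to 9.37 in BN rats. For Cth it was 8.12 and 8.16 in GK rats, against 7.76 to 8.72 in BN rats, and for Gnmt 7.56 and 8.10 in GK rats, against 7.70 to 9.30 in BN rats, with overlap for both. These differences between strains were not tested.

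The order of Cbs levels, low to high, was GK adipose tissue (5.23 to 6.51), BN adipose tissue (8.47 to 9.43), GK liver (10.59 to 11.96, and 11.30 to 11.96 without replicate 2) and BN liver (12.01 to 12.44), and no neighbouring groups overlapped. The step between GK and BN adipose tissue is the contrast that chose Cbs, so nothing is read from it. The nearest GK and BN livers were only 0.06 apart. Over the 16 arrays without GK liver replicate 2, the genes whose pattern was most like that of Cbs among 7347 probes were Fkbp8 (Pearson r = 0.983), C4bpa (r = 0.982), Afp (r = 0.980), Serping1 (r = 0.977) and Adhfe1 (r = 0.977). Afp encodes alpha-fetoprotein, and C4bpa and Serping1 encode inhibitors of complement. The arrays share their tissue and strain groups, and the ranking includes the adipose tissue values that chose Cbs. A high r need not hold for each step between the 4 groups. In liver without GK replicate 2, GK minus BN was −0.68 for Cbs, 0.07 for Afp and −0.50 to −0.27 for the others. In adipose tissue it was −2.85 for Cbs, −4.70 for Afp and −3.29 to −0.85 for the others.

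A wider list of 42 genes of the folate and betaine cycles, transsulfuration, sulfide oxidation, taurine synthesis, methyl transfer and methionine salvage had 33 measured members. In adipose tissue, GK compared to BN, none of the 33 passed the threshold, beside 2.65% of all probes. In liver none passed with all arrays, beside 0.679% of all probes. Without GK liver replicate 2 none was higher and 1 lower in GK, with 32 not past, beside 1.21% of all probes, so that 1 of 33 is no result about the list. This was Nnmt, which methylates nicotinamide with S-adenosylmethionine. It measured 11.41, 6.04 and 12.00 in GK livers, against 13.82, 13.46, 13.60, 13.63 and 13.05 in BN livers, every GK liver being under every BN liver. Without replicate 2 the difference was −1.81 (SE 0.29, limma adjusted p = 0.0330), and the call was lost without any 1 of BN livers 1 to 4 or without GK liver replicate 1 (limma adjusted p = 0.0661 to 0.223). It was also lost with quantile normalization (limma adjusted p = 0.0521) and with the replicate number as a block (limma adjusted p = 0.619), in all under 7 of 15 alternatives.

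Between BN liver and BN adipose tissue, 20 of the 33 genes were higher in liver, 5 lower and 8 not past the threshold, where 20.8% of all probes were higher and 18.0% lower, and the median difference was 1.09, beside 0.01 over all probes. With neqc these counts were 18 higher and 8 lower, and with quantile normalization 18 higher and 7 lower. Among those higher were 4 that were above background on no BN adipose tissue array. They included Chdh, which oxidises choline towards betaine (at least 102-fold), Dmgdh, which demethylates the dimethylglycine left by Bhmt (at least 53.2-fold), and Gldc, of the glycine cleavage system (at least 18.0-fold). These bounds too hold for the vsn values only. Over 11 alternatives the lowest log2 difference was 4.08 for Chdh, 3.13 for Dmgdh and 1.60 for Gldc. Gamt, which makes creatine with a methyl group from S-adenosylmethionine, was higher by 5.00 on the log2 scale (SE 0.17, limma adjusted p = 1.33e-06). Among those lower in liver was Csad, the taurine synthesis enzyme that acts after Cdo1, at 11.26 ± 0.37 in liver and 12.97 ± 0.21 in adipose tissue (SD, n = 5 each), a difference of −1.71 (SE 0.20, limma adjusted p = 0.000476). Pcmt1, which methylates damaged proteins, was lower by a difference of −1.29 (SE 0.16, limma adjusted p = 0.000619). Slc19a1, the reduced folate carrier, was lower by a difference of −1.23 (SE 0.21, limma adjusted p = 0.00330). Mtap, of methionine salvage, passed the test as lower but was above background on no array of either tissue, so that no direction is given for it.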

How the data were processed

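RNA was measured on 17 arrays of 12 slides. The deposited intensity values are bead averages from the authors' scanner software, not normalized, with bead numbers, which were 23 to 77 for the probes described. The deposited detection score compares a probe with the negative controls. The authors' deposited log2 table, made with vsn within each tissue, served as an alternative. The background-subtracted intensities were here normalized in 1 vsn model of all arrays (own code, trimmed fraction 0.9, 7 iterations, 5 slices), because tissues are compared. Set against the deposited log2 values, the same code run per tissue differed by at most 0.101.

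GK and BN were compared within a tissue by limma 3.58.1 (R 4.3.3), as in the methods of the study, and BN liver and adipose tissue with the rat as a block, with Benjamini-Hochberg adjustment over 22226 probes. The code was tested on simulated data. A gene's brightest probe stood for it. Genes of the wider list were named where they passed, at most 4 per direction by size, and the 5 genes most like Cbs by r among probes with a symbol and above background on at least 4 arrays. Alternatives covered normalization, a filter on detected probes, the variance prior, slide, the replicate number, 1 fit to all arrays and leaving out arrays. The genes and lists were chosen with earlier results of these data known. Within a tissue each array is a separate rat per the labels. The rearing notes and methods state 4 rats a strain, and the files' 5 BN rats were used. The number of arrays limits the precision. Tests of sets and of interactions were not run.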

Additional observations from a re-analysis of the deposited data

Results flagged for a closer look

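In 3 of the 27 groups of values examined, 1 array stood apart from the others by its gap relative to the range of the group. Chance alone marks about 5% of such groups. The genes share their arrays, so the 27 groups are not independent, and no excess over that share is read. All 3 were the lowest array in BN liver, BN replicate 1 each time. The gap was 0.744 of the range for Cbs, 0.769 for Cth and 0.827 for Bhmt. BN liver replicate 1 was the lowest BN liver for 6 of the 9 genes, Cbs, Cth, Mat1a, Bhmt, Ahcy and Mtr. The share of all probes lowest on this array was not computed, so nothing is read from the count. This array had 8004 probes above background, the fewest of the liver arrays. Its mean raw signal of 868 units was the lowest of the BN livers, and its negative control mean of 153.9 units the highest. All 8 hepatocyte genes were above background on it, and their median lay 0.12 below the BN mean. The median of 3 erythroid genes was 9.86 on this array and 6.17 to 7.33 on the other BN livers. Taken from the BN mean of each gene, however, the erythroid median was −0.03 on this array and −0.72 to 0.14 on the others. The summed erythroid signal was 48906.6 units on it, within the 45675.5 to 56522.7 units of the other BN livers. The part of blood in the values was not tested.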

How the results depend on the processing

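In adipose tissue the difference of Cbs was −3.07 to −1.16 over 18 alternatives, the smallest being neqc. The number of genes past the threshold was 1 of 9 in adipose tissue and 2 with a filter on detected probes, neqc or quantile normalization, where Mtr was added, and it was 1 without each array. The 1 gene is Cbs, which was chosen on this contrast, so its passing under these alternatives supports nothing. In liver it was 0 and became 1 (Gnmt, adjusted p = 0.0154) in 1 fit to all arrays, and it was 0 without each array. Without GK liver replicate 2 it was 0, and 1 (Gnmt) in 1 fit to all arrays, with the deposited log2 values or with vsn of the tissue alone, 2 (Mat1a and Gnmt) with the filter or a trended and robust prior, and 0 to 2 leaving out 1 more array. The value of 2 came without GK liver replicate 3, which leaves 1 GK liver that is assumed to vary like the BN livers. In BN liver against adipose tissue it was 8, 7 to 9 over the alternatives and 8 without each rat. Without the rat block the count stayed at 8.

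The directions that turned were the following: Cdo1 between tissues (−0.54 with neqc, −0.53 with quantile normalization); Cdo1 in liver without GK replicate 2 (0.0802 with neqc, 0.0796 with quantile normalization); Cth in liver (0.20 with neqc, 0.19 with quantile normalization, 0.22 without GK replicate 2); and Mtr in liver (−0.0072, −0.0294 and −0.16 under the same 3). Leaving out 1 array at a time, Cth in liver ran from −0.32 to 0.22 and Mtr in liver from −0.16 to 0.21. In adipose tissue Ahcy ran from −0.01, without BN replicate 4, to 0.0951. Mat2a ran from −0.0915 without GK replicate 1, through −0.0034 without BN replicate 3, to 0.39. Their causes were not tested.

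Replicate numbers are shared between strains only as numbers, and the same-numbered arrays' deviations correlated at −0.0651 to 0.0798. With the replicate number as a block, 1 gene of the 9 passed in adipose tissue and 0 in liver with or without GK replicate 2. The probes past the threshold with this block were 184, against 588 without it, in adipose tissue, 0 against 151 in liver (1503 at an unadjusted p under 0.05) and 0 against 269 without GK liver replicate 2 (1650 unadjusted). Over all alternatives the probes past the threshold ranged from 184 to 1186 in adipose tissue, 0 to 684 in liver and 0 to 878 without replicate 2. Slide as a random block left 1 gene past the threshold in adipose tissue and 0 in liver. It was not run without GK liver replicate 2, where its correlation could not be estimated, nor for the BN tissues, where no slide held more than 1 BN array. Each gene had 1 probe, so using every probe changes nothing.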
